A study of Homo sapiens with 18 samples.

Results

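The TGF-beta ligands, receptors and SMADs were followed as 10 genes: the ligands TGFB1, TGFB2 and TGFB3, the receptors TGFBR1, TGFBR2 and TGFBR3, and the signal transducers SMAD2, SMAD3, SMAD4 and SMAD7. They were chosen by name, with earlier results of these data known, and are 10 of the 58381 rows of the deposited count tables. TGFBR2 is known from earlier work as a gene repressed by the Ewing sarcoma fusion. RNA sequencing measured transcripts in the established lines TC-32, TC-71 and A673. Their tumour type, Ewing sarcoma, grows in bone or soft tissue of young people. It is most often driven by EWSR1::FLI1, which joins EWSR1 to the DNA-binding part of the transcription factor FLI1. In each line, 3 libraries came from cells reverse transfected with siFLI1, an siRNA to the FLI1 sequence that the fusion carries as well, and 3 from cells given the control siRNA siNeg, both at 20 nM. The 18 libraries formed 6 groups. A time of 48 h stands in the column names of TC-32 and TC-71, and no time was given for A673. The line of those 12 columns is known from the name of their table alone. A673 was grown in DMEM and the others in RPMI medium, and each line derives from 1 tumour. Nothing states that replicates were separate cultures, so p-values measure the spread between these libraries, which may be technical. The line ES-5838 and the siRNA siERG, which the series text also names, were not analysed here.

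TGF-beta ligands are secreted in a latent form and released outside the cell. An active dimer binds the kinase TGFBR2, which recruits and phosphorylates TGFBR1, while the coreceptor TGFBR3 presents ligand, TGFB2 above all. TGFBR1 then phosphorylates SMAD2 and SMAD3, which join SMAD4, enter the nucleus and change transcription, and the inhibitor SMAD7, itself a target, switches the receptor off. The pathway restrains proliferation and raises matrix, contractile and motility genes in mesenchymal cells.

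Levels are given as CPM, the count scaled to a common library size, after TMM scaling, a factor that evens out composition between libraries. A gene was called higher or lower when its Benjamini-Hochberg adjusted p from edgeR's quasi-likelihood test, run over all genes of a line, was under 0.05. The total count per library was 24102487 to 33669271 in TC-32, 19685354 to 37234528 in TC-71 and 114564479 to 120993595 in A673, so the same CPM rests on more reads in A673. The TC-71 table came from another counting program than the others, so levels were not tested between lines. FLI1, the targeted gene, fell in every line (edgeR adjusted p at most 1.8e-13): in A673 its mean was 76.2 CPM with siNeg and 17.95 with siFLI1, in TC-71 50.9 and 18.3, and in TC-32 45.2 and 22.1. Of 6 Ewing sarcoma markers, 6 had a siNeg mean of at least 1 CPM in TC-32 and in A673 and 5 in TC-71, where CD99 was listed at 0 counts. Their sum, with both table rows of CD99, was 643 to 672.7 CPM with siNeg and 344 to 361 with siFLI1 in TC-32. In TC-71 it was 631 to 648 and 176 to 179, and in A673 926 to 974 and 507 to 518. CD99 alone had means of 330 CPM with siNeg and 296 with siFLI1 in TC-32, and 731 and 458 in A673. The sums therefore do not compare the fall of these markers between lines. The cause of the 0 counts of CD99 in TC-71 was not tested. Leukocyte, epithelial and endothelial markers, each kind summed on its own, came to at most 13.1 CPM in any library. That highest sum was of leukocyte markers in A673 with siFLI1, most of it CD68 (mean 12.2 CPM, and 6.83 with siNeg). In TC-32 the mean of CD68 was 1.90 CPM with siNeg and 7.96 with siFLI1. Of the exon bases of CD68, 81.6% are shared with another gene model on its strand. PTPRC, CD3E and CD14 had group means of at most 0.603 CPM and did not all move with CD68. From siNeg to siFLI1, the mean of PTPRC went from 0.064 to 0.017 CPM in A673. The mean of CD14 went from 0.094 to 0.256 CPM in A673 and from 0.594 to 0.523 in TC-32. In bulk libraries, fewer cells of a kind and less RNA per cell cannot be told apart.

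Of the 10 genes, 7 rose after siFLI1 in all 3 lines: TGFB2, TGFB3, all 3 receptors, SMAD3 and SMAD7. SMAD4 was not called in any line, TGFB1 and SMAD2 fell in TC-32 alone, and TGFB1 was called higher in TC-71 by a small margin. In TC-32, 7 were higher and 2 lower, where 81.4% of all genes were called, 41.3% higher and 40.1% lower. In TC-71, 8 were higher and 0 lower, where 71.9% of all genes were called, 36.8% higher and 35% lower. In A673, 7 were higher and 0 lower, where 71% of all genes were called, 35.6% higher and 35.4% lower. Most genes were therefore called in each line, and being called does not set these genes apart. Over genes tested in all 3 lines, 18.9% were higher in each.

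The size of the change was read against the same background. The median log2 fold change of the 10 genes was 0.80 (TC-32), 1.44 (TC-71) and 0.90 (A673), and the median over all genes tested was 0.022, 0.018 and -0.0066 in the same order. TGFB2, TGFBR2 and TGFBR3 were at least 2-fold higher in all 3 lines, as were 5% of the genes tested in all 3. With a 2-fold change in either direction required, 5 of the 10 genes were called in TC-32 (37.6% of all genes), 6 in TC-71 (23.4%) and 4 in A673 (23.1%). The 6 libraries of a line separated without overlap, siFLI1 above siNeg, for 7 of the 10 genes in each line, and for 2 more in TC-32, TGFB1 and SMAD2, the siFLI1 libraries were the lower. Of all genes, 82.5% separated in either direction in TC-32 (41.8% upwards), 73.8% in TC-71 (37.9%) and 73.6% in A673 (36.6%). For SMAD4 in every line, and for TGFB1 and SMAD2 in TC-71 and A673, the groups overlapped.

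**Figure D1:**
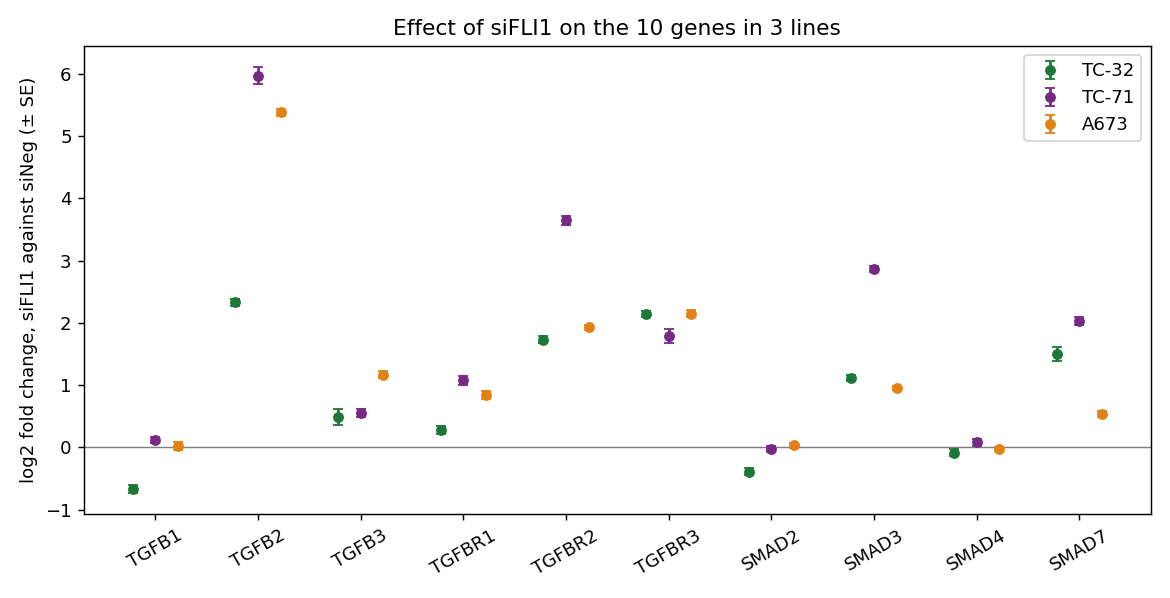
The log2 fold change of siFLI1 against siNeg (vertical axis, points with bars of 1 standard error) is plotted for the 10 genes in TC-32, TC-71 and A673. TGFB2, TGFBR2 and TGFBR3 lie above 1 in each line, and SMAD4 lies within 0.1 of 0.

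TGFB2, the ligand that depends most on TGFBR3 for binding, changed more than any other of the 10 genes in every line. It lies on the plus strand of chromosome 1 from 218345336 to 218444619 (GENCODE release 44, GRCh38). In TC-71 the siNeg libraries held 0.408, 0.507 and 0.486 CPM, or 11, 10 and 14 counts, and the siFLI1 libraries 28.0, 30.4 and 29.7 CPM. All 3 control libraries of TC-71 thus held few reads of TGFB2, and the siFLI1 libraries held 685 to 1101 counts. For A673 the levels were 9.17, 10.1 and 11.1 CPM with siNeg and 438, 406 and 426 CPM with siFLI1. For TC-32 the levels were 26.4, 25.5 and 22.6 CPM with siNeg and 129.9, 117 and 128 CPM with siFLI1. No siFLI1 library overlapped a siNeg library of its line. The rise was 62.8-fold in TC-71 (log2 fold change 5.97 ± 0.14, SE, n = 3 against 3, edgeR adjusted p = 3.6e-25), 41.7-fold in A673 (5.38 ± 0.062, adjusted p = 4.2e-19) and 5.03-fold in TC-32 (2.33 ± 0.063, adjusted p = 1.1e-20). The rise in TC-32 was below the rise in TC-71 by 3.66 and below the rise in A673 by 3.03, both in log2 units (edgeR interaction tests, adjusted p = 3.1e-17 and 6.7e-25). TC-32 had the highest control level, and the siFLI1 level of TC-71 came out just above it. Of the exon bases of TGFB2, 22.7% are shared with TGFB2-OT1 on the same strand and 11.6% with TGFB2-AS1 on the other, and how the authors' counting assigned those reads is not given in the sources used here.

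The promoters of the 3 genes at least 2-fold higher in all 3 lines are shown because FLI1 binds DNA at GGAA. Each run holds the 250 bases before the most upstream RefSeq start (GRCh38.p14), 5′ to 3′ on the strand of the gene, with GGAA on either strand in capitals.
TGFB2 (chr1:218345086-218345335, plus strand): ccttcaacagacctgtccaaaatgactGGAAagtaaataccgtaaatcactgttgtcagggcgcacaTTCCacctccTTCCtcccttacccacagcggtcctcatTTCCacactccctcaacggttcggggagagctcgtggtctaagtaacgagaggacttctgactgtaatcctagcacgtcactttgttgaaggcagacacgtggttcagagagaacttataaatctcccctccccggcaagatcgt
TGFBR2 (chr3:30606106-30606355, plus strand): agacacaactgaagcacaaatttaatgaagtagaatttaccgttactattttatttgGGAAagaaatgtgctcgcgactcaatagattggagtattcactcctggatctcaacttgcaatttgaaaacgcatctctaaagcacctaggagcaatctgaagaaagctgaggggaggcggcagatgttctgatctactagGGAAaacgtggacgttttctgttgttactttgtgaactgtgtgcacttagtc
TGFBR3 (chr1:91886152-91886401, minus strand): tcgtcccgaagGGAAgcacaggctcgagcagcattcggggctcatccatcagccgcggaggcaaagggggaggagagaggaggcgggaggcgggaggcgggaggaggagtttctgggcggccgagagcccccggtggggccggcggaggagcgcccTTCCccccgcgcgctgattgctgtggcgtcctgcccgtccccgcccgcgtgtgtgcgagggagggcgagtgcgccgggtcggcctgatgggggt
The TGFB2 window holds 4 copies of GGAA, and those of TGFBR2 and TGFBR3 hold 2 each. The median over the 27305 genes with such a window was 3 and 92.8% held at least 1, while the other 7 of the 10 genes held 1 to 4. The tandem GGAAGGAA, the unit of the microsatellites through which the fusion is known to activate genes, was in 0 of the 10 windows and in 2.99% of all. The SMAD-binding word CAGAC, searched on both strands, was in the windows of TGFB2, TGFB3 and SMAD7, with 2 copies in each, and in 37.9% of all. The AP-1 word TGANTCA was in 0 of the 10 and in 6.57% of all. The TGFB2 window overlaps an exon of TGFB2-AS1. The RefSeq start of TGFBR2 lies before its GENCODE start, 30606601, by nearly the length of the window. The TGFBR2 window thus holds almost none of the 250 bases before the GENCODE start, and its GGAA count does not describe them. The RefSeq start of TGFBR3 lies 20184 bases inside the longest GENCODE model. A match is only a run of letters, and no binding was measured.

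TGFB1, the ligand made by most cell types, fell in TC-32, was called higher in TC-71 by a small margin and was not called in A673. TGFB1 lies on the minus strand of chromosome 19 from 41301587 to 41353922. In TC-32 the siNeg libraries held 79.4, 76.4 and 84.8 CPM and the siFLI1 libraries 46.1, 54.7 and 50.5 CPM. The groups did not overlap, and TGFB1 fell 1.59-fold (-0.67 ± 0.061, adjusted p = 4.9e-10). In TC-71 the siNeg libraries held 138, 146 and 142 CPM and the siFLI1 libraries 164, 156 and 141 CPM, with siFLI1 replicate 3 inside the control range. The call there, 1.08-fold higher (0.11 ± 0.050, adjusted p = 0.046), was lost under 12 of 13 other settings, 5 of the 6 fits that left out a library among them, and without siFLI1 replicate 1 the value was 0.063. In A673 the siNeg libraries held 45.9, 43.3 and 44.6 CPM and the siFLI1 libraries 40.1, 48.6 and 47.3 CPM, with siFLI1 replicate 1 below all controls. TGFB1 was not called in A673 (0.024, 95% interval -0.10 to 0.15, adjusted p = 0.73), but without that library it was called higher at 0.11 (adjusted p = 0.011). The effect in TC-32 differed from that in A673 by -0.67 and from that in TC-71 by -0.79 (adjusted p = 2.0e-07 and 1.5e-08).

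TGFB3, the third ligand, rose in all 3 lines, from a low level in TC-32 and A673. The TGFB3 gene lies on the minus strand of chromosome 14 from 75958097 to 75983011. TC-71 had 36.8, 31.4 and 34.9 CPM of TGFB3 in its siNeg libraries and 48.2, 51.3 and 52.0 CPM in its siFLI1 libraries. A673 had 7.48, 8.02 and 7.44 CPM of TGFB3 in its siNeg libraries and 16.8, 17.8 and 16.9 CPM in its siFLI1 libraries. TC-32 had 4.65, 4.37 and 5.64 CPM of TGFB3 in its siNeg libraries and 6.32, 7.01 and 7.11 CPM in its siFLI1 libraries. The siFLI1 libraries were the higher 3 in each line, with the narrowest gap in TC-32. The rise was 2.24-fold in A673 (1.17 ± 0.057, adjusted p = 1.7e-11), 1.46-fold in TC-71 (0.55 ± 0.063, adjusted p = 5.3e-09) and 1.4-fold in TC-32 (0.48 ± 0.12, adjusted p = 0.0010). The effect in A673 exceeded those in TC-32 by 0.65 and in TC-71 by 0.58 (adjusted p = 4.0e-05 and 3.0e-06), while the 2 smaller ones differed by -0.071 (95% interval -0.33 to 0.19).

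**Figure D2:**
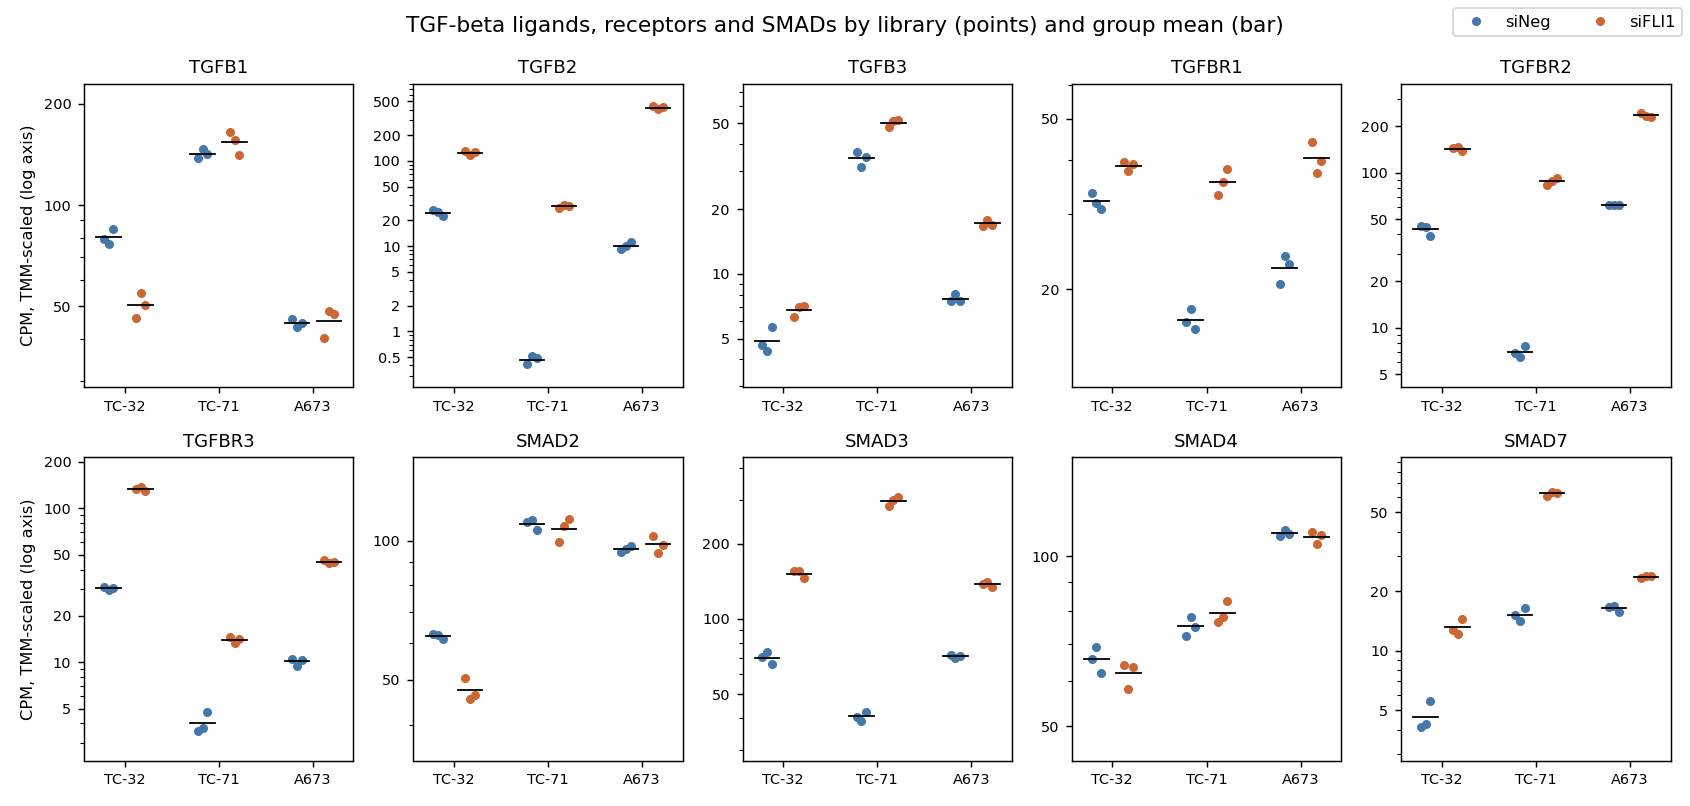
Each panel shows 1 gene, with CPM on a log axis and the 3 lines along the horizontal axis. Points are libraries, siNeg in blue and siFLI1 in orange, and black bars are group means. The siFLI1 points lie above the siNeg points of their line for TGFB2, TGFB3, the 3 receptors, SMAD3 and SMAD7.

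The makeup of the ligand transcripts differed between siNeg and siFLI1 libraries. Per kilobase of the canonical transcript, so that genes of unequal length can be set side by side, the 3 ligands summed to 34.5 ± 1.46 CPM per kilobase in siNeg and 41.4 ± 0.755 in siFLI1 libraries of TC-32 (SD, n = 3). The sums were 61.2 ± 0.740 and 75.0 ± 3.72 for TC-71, and 19.99 ± 0.316 and 93.4 ± 1.41 for A673. The sum was higher in every siFLI1 library than in the controls of its line, by the widest margin in A673. TGFB1 made up most of it in the controls of all lines: 83.6% ± 1.01 (TC-32), 83.5% ± 1.496 (TC-71) and 80.2% ± 1.15 (A673). After siFLI1, its share was 43.8% ± 3.23, 73.6% ± 2.21 and 17.5% ± 1.89 in the same order. The TGFB2 share was 12.3% ± 1.39 in controls of TC-32 and 51.4% ± 3.40 after siFLI1. In TC-71 these shares were 0.130% ± 0.0130 and 6.69% ± 0.516, and in A673 8.65% ± 0.869 and 77.2% ± 2.09. TGFB2 was thus the leading ligand transcript of every siFLI1 library of TC-32 and A673, though only just in TC-32 siFLI1 replicate 2 (47.8% against 47.3% for TGFB1), and TGFB1 was the leading one in TC-71. TGFB3 held 4.12% ± 0.390 and 4.80% ± 0.217 in TC-32, 16.4% ± 1.51 and 19.7% ± 1.70 in TC-71, and 11.2% ± 0.647 and 5.36% ± 0.252 in A673. With raw counts in place of values per length, the TGFB2 share in siFLI1 libraries was 68.5% (TC-32), 12.6% (TC-71) and 87.1% (A673). The shares are a description, with no test of their own.

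**Figure D3:**
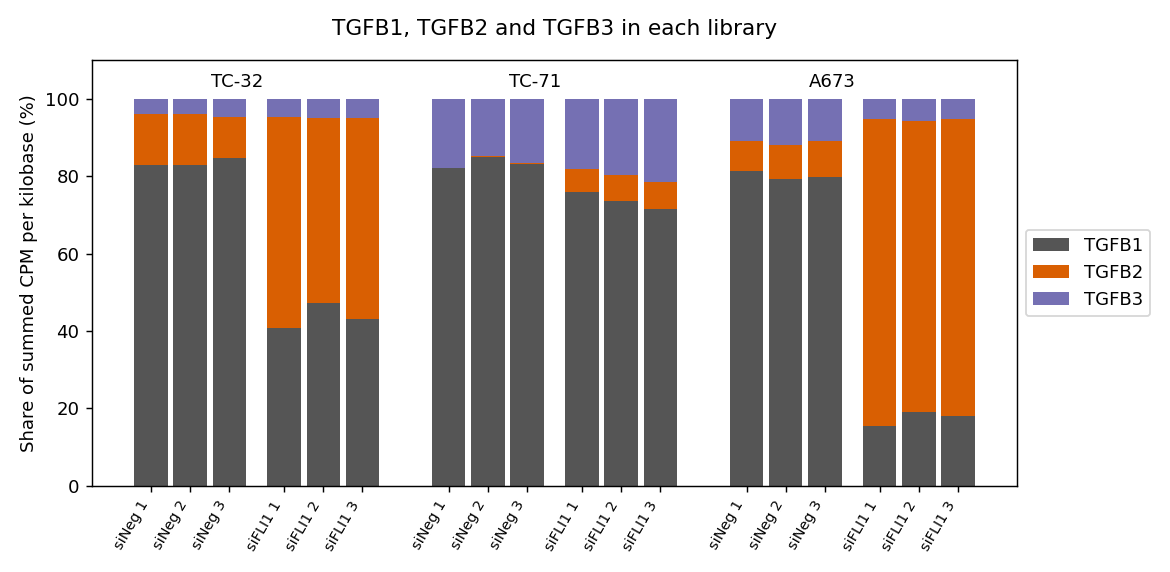
Shares of TGFB1, TGFB2 and TGFB3 in their summed CPM per kilobase (vertical axis, percent) are stacked in 1 bar for each of the 18 libraries. TGFB2 (orange) holds the largest share in siFLI1 libraries of TC-32 (mean 51.4%) and A673 (77.2%), and TGFB1 (grey) in all other libraries.

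TGFBR2, the receptor that binds ligand first and the one known as repressed by the fusion, rose in all 3 lines. TGFBR2 lies on the plus strand of chromosome 3 from 30606601 to 30694142, and the window before its RefSeq start is printed above. In TC-71 the siNeg libraries held 6.91, 6.44 and 7.60 CPM and the siFLI1 libraries 83.4, 88.5 and 92.5 CPM. In TC-32 the siNeg libraries held 45.6, 44.5 and 39.3 CPM and the siFLI1 libraries 144, 146 and 139 CPM. In A673 the siNeg libraries held 62.2, 61.6 and 61.5 CPM and the siFLI1 libraries 241, 233 and 230.4 CPM. The lowest siFLI1 library of any line, 83.4 CPM, stood above the highest control library of any line. The rise was 12.5-fold in TC-71 (3.65 ± 0.073, adjusted p = 1.2e-26), 3.80-fold in A673 (1.93 ± 0.037, adjusted p = 1.2e-16) and 3.31-fold in TC-32 (1.73 ± 0.055, adjusted p = 3.4e-19). The effect in TC-71 exceeded that in TC-32 by 1.93 and that in A673 by 1.75 (adjusted p = 4.3e-19 and 2.1e-18). TC-32 and A673 differed by -0.17 (adjusted p = 0.030), a call lost under 10 of 20 other settings. The ratio of the highest to the lowest line mean was 8.85 in siNeg and 2.67 in siFLI1 libraries. It narrowed for TGFB2 and TGFBR1 too, from 53.1 to 14.4 for TGFB2. For TGFB1, TGFB3, TGFBR3, SMAD2, SMAD3, SMAD4 and SMAD7 it widened, from 7.53 to 9.51 for TGFBR3 and from 3.52 to 4.75 for SMAD7. Comparisons of levels between lines, here and for the other genes, are a description only. Each line was scaled on its own, TC-71 had another counting program and A673 another medium.

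The genes whose change over the 3 lines was closest to that of TGFBR2, by the root mean square difference of log2 fold changes among 11066 genes, were SPARC (0.13), MEIS3 (0.16), TMSB4X (0.17), DCLK2 (0.22) and MANBA (0.29). SPARC is a collagen-binding matrix protein, MEIS3 a homeodomain factor, TMSB4X the actin-sequestering thymosin beta 4, DCLK2 a doublecortin-like kinase and MANBA the lysosomal beta-mannosidase. SPARC, the closest, rose by 1.77 (TC-32), 3.68 (TC-71) and 2.14 (A673). The likeness rests on 3 lines and was not tested.

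TGFBR1, the kinase that TGFBR2 activates, also rose in every line but by less. The TGFBR1 gene lies on the plus strand of chromosome 9 from 99104038 to 99154192. TC-32 had 33.5, 31.9 and 30.8 CPM of TGFBR1 in its siNeg libraries and 39.7, 37.8 and 39.2 CPM in its siFLI1 libraries. TC-71 had 16.7, 18.05 and 16.2 CPM of TGFBR1 in its siNeg libraries and 33.2, 35.7 and 38.2 CPM in its siFLI1 libraries. A673 had 20.6, 23.9 and 22.9 CPM of TGFBR1 in its siNeg libraries and 44.2, 37.4 and 39.9 CPM in its siFLI1 libraries. The control groups did not overlap between lines, whereas the 3 siFLI1 groups did: the ratio of highest to lowest line mean went from 1.89 to 1.14. The rise was 2.11-fold in TC-71 (1.08 ± 0.073, adjusted p = 6.3e-14), 1.80-fold in A673 (0.85 ± 0.064, adjusted p = 5.2e-09) and 1.21-fold in TC-32 (0.28 ± 0.061, adjusted p = 0.00022). The effect in TC-32 was below those in TC-71 by 0.81 and in A673 by 0.55 (adjusted p = 2.6e-08 and 3.7e-06).

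TGFBR3, or betaglycan, the coreceptor without a kinase, rose 3.47-fold to 4.44-fold over the 3 lines. It lies on the minus strand of chromosome 1 from 91680343 to 91906335, and its promoter is also printed above. For TC-32 the levels were 30.7, 29.6 and 30.3 CPM with siNeg and 133, 137 and 129.8 CPM with siFLI1. For TC-71 the levels were 3.56, 3.75 and 4.72 CPM with siNeg and 14.7, 13.4 and 14.1 CPM with siFLI1. For A673 the levels were 10.5, 9.49 and 10.4 CPM with siNeg and 46.2, 43.8 and 44.7 CPM with siFLI1. No siFLI1 library overlapped a control of its line, and the order of the lines, TC-32 above A673 above TC-71, was the same under both siRNAs. The rise was 4.42-fold in TC-32 (2.14 ± 0.052, adjusted p = 1.4e-21), 4.44-fold in A673 (2.15 ± 0.051, adjusted p = 1.8e-15) and 3.47-fold in TC-71 (1.79 ± 0.11, adjusted p = 1.1e-14). TC-32 and A673 differed by 0.018 (95% interval -0.14 to 0.18). The effect in TC-71 was lower by 0.34 than that in TC-32 and by 0.32 than that in A673 (adjusted p = 0.010 and 0.014), and without TC-71 siNeg replicate 3 these were 0.19 and 0.16 and no longer called.

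Per kilobase, the kinase receptors changed places in TC-71. There TGFBR2 stood at 1.54 ± 0.129 CPM per kilobase against 2.62 ± 0.148 for TGFBR1 in siNeg libraries, and at 19.5 ± 1.01 against 5.50 ± 0.384 in siFLI1 libraries (SD, n = 3). In TC-32, TGFBR2 stood at 9.52 ± 0.747 and 31.5 ± 0.772 against 4.94 ± 0.209 and 5.99 ± 0.158 for TGFBR1. In A673 it stood at 13.6 ± 0.0876 and 51.9 ± 1.27 against 3.46 ± 0.262 and 6.24 ± 0.532. TGFBR2 was thus above TGFBR1 in both groups of TC-32 and A673 and only after siFLI1 in TC-71. TGFBR3 stood at 4.77 and 21.0 CPM per kilobase in TC-32, at 0.633 and 2.21 in TC-71 and at 1.60 and 7.08 in A673.

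Among the SMADs, SMAD3, the DNA-binding transducer of the receptor signal, rose in every line. SMAD3 lies on the plus strand of chromosome 15 from 67063763 to 67195173. In TC-71 the siNeg libraries held 40.6, 39.0 and 42.6 CPM and the siFLI1 libraries 284, 299 and 307 CPM. In TC-32 the siNeg libraries held 70.3, 73.9 and 65.8 CPM and the siFLI1 libraries 155, 155 and 146 CPM. In A673 the siNeg libraries held 71.8, 69.7 and 71.2 CPM and the siFLI1 libraries 137, 140.1 and 135 CPM. TC-71 had the lowest controls and the highest siFLI1 libraries, while the controls of TC-32 and A673 overlapped. The rise was 7.27-fold in TC-71 (2.86 ± 0.050, adjusted p = 4.4e-28), 2.17-fold in TC-32 (1.12 ± 0.051, adjusted p = 4.1e-16) and 1.94-fold in A673 (0.95 ± 0.037, adjusted p = 9.8e-13). The effect in TC-71 exceeded that in TC-32 by 1.75 and that in A673 by 1.94 (adjusted p = 5.1e-21 and 1.4e-22).

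SMAD2, the other receptor-activated SMAD of this branch, fell in TC-32 and was not called elsewhere. The SMAD2 gene lies on the minus strand of chromosome 18 from 47808957 to 47931146. TC-32 had 62.8, 62.4 and 61.3 CPM of SMAD2 in its siNeg libraries and 50.5, 45.4 and 46.4 CPM in its siFLI1 libraries, with no overlap. The fall was 1.31-fold (-0.39 ± 0.056, adjusted p = 7.3e-07). TC-71 had 109.9, 111 and 105 CPM of SMAD2 in its siNeg libraries and 99.2, 108 and 111 CPM in its siFLI1 libraries. A673 had 94.4, 95.7 and 97.6 CPM of SMAD2 in its siNeg libraries and 102.5, 94.2 and 97.7 CPM in its siFLI1 libraries. Groups overlapped in both lines, with effects of -0.032 in TC-71 (95% interval -0.13 to 0.068) and 0.033 in A673 (-0.053 to 0.12). The effect in TC-32 differed from those in A673 by -0.40 and in TC-71 by -0.37 (adjusted p = 7.7e-06 and 5.3e-05).

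SMAD4, the partner that SMAD2 and SMAD3 share, was not called in any line. It lies on the plus strand of chromosome 18 from 51028528 to 51085045. For TC-32 the levels were 65.8, 69.1 and 62.1 CPM with siNeg and 64.2, 58.3 and 63.8 CPM with siFLI1. For TC-71 the levels were 72.4, 78.2 and 75.0 CPM with siNeg and 76.4, 78.1 and 83.3 CPM with siFLI1. For A673 the levels were 109, 112 and 109.7 CPM with siNeg and 110.3, 105 and 109 CPM with siFLI1. The groups overlapped in each line. The effects were -0.083 in TC-32 (95% interval -0.20 to 0.034), 0.080 in TC-71 (-0.026 to 0.19) and -0.023 in A673 (-0.10 to 0.055). With library totals in place of TMM the A673 value was -0.13 and was called lower (adjusted p = 0.0056), a setting that moved the median of all genes in A673 by -0.10.

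SMAD7, the inhibitor that pathway activity itself raises, rose in every line. SMAD7 lies on the minus strand of chromosome 18 from 48919853 to 48950965. In TC-32 the siNeg libraries held 4.15, 4.26 and 5.56 CPM and the siFLI1 libraries 12.8, 12.2 and 14.4 CPM. In TC-71 the siNeg libraries held 15.2, 14.2 and 16.4 CPM and the siFLI1 libraries 60.6, 63.6 and 62.8 CPM. In A673 the siNeg libraries held 16.7, 16.8 and 15.6 CPM and the siFLI1 libraries 23.4, 23.9 and 23.8 CPM. The groups did not overlap in any line, and the controls of TC-71 and A673 overlapped each other. The rise was 4.07-fold in TC-71 (2.03 ± 0.066, adjusted p = 1.3e-21), 2.82-fold in TC-32 (1.498 ± 0.12, adjusted p = 1.4e-11) and 1.45-fold in A673 (0.53 ± 0.049, adjusted p = 5.6e-08). All 3 pairs of lines differed, by 1.53 between TC-71 and A673, 0.99 between TC-32 and A673 and 0.54 between TC-71 and TC-32 (adjusted p = 1.4e-15, 6.0e-09 and 0.00059).

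Set against all genes, differences between lines were common. The fall of FLI1 itself differed too, at 2.05-fold in TC-32, 2.77-fold in TC-71 and 4.25-fold in A673. Every pair of lines was called for FLI1 (edgeR interaction test, adjusted p at most 6.7e-05), and TC-32 minus A673 was 1.08. How far this bears on the other genes was not tested. The interaction test called 8 of the 10 between TC-32 and A673, where 62.1% of all genes were called. It called 9 between TC-32 and TC-71, where 53.6% were called, and 7 between A673 and TC-71, where 51.6% were called. Without TC-71 siNeg replicate 3, the last count was 4. TC-71 had the largest rise of TGFB2, TGFBR1, TGFBR2, SMAD3 and SMAD7, and its controls held the lowest mean of TGFB2, the 3 receptors and SMAD3. That mean and that rise share the same control libraries, and the calls for TGFB2 and TGFBR1 between A673 and TC-71 (-0.63 and -0.27, adjusted p = 0.036 and 0.021) were lost under 7 and 9 of 20 other settings.

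The genes that store and release the ligands were mostly higher. Of 16 genes of latency and activation, 10 of 15 tested were higher and 1 lower in A673, 14 of 14 higher in TC-32 and 12 of 12 higher in TC-71. These are 66.7%, 100% and 100% of the tested members higher, where 35.6%, 41.3% and 36.8% of all genes were. Their median log2 fold change was 1.74, 3.10 and 3.31 in that order, against the medians of all genes given above. A gene near 0 counts in 1 group was tested only where the other group passed the filter on low counts, which fixed its direction. In TC-71, LRRC32 and BGN entered this way, with at most 2 and 1 counts in any control. The shares of tested members are limited by this. THBS1, or thrombospondin 1, which activates latent TGF-beta, went from 3.77 ± 0.399 to 244 ± 7.07 CPM in TC-32 (6.02 ± 0.070, adjusted p = 1.5e-27). It rose by 7.57 in TC-71, where its controls held 2 to 12 counts, and by 5.51 in A673. LRRC32, or GARP, which tethers latent ligand to the cell surface, went from 0.187 to 17.8 CPM in TC-32 and from 1.54 to 30.3 in A673. Against a floor of 3 counts per library, TC-71 showed a rise of LRRC32 of at least 67.4-fold, since its controls held at most 2 counts. LTBP1, which binds the latent complex to matrix, rose by 3.26 (TC-32), 3.86 (TC-71) and 3.43 (A673), and LTBP2, a matrix relative that does not bind it, by 5.996, 4.42 and 3.47. LTBP4 rose by 0.88 in TC-32 and 1.17 in TC-71. In A673 it was called lower at -0.18 (adjusted p = 0.023), a call lost in 5 of the 6 fits that left out a library. The sum of the fibroblast markers PDGFRA, DCN and LUM, of which DCN is in this list too, moved with the list. It ranged over 15.7 to 18.5 CPM with siNeg and 89.1 to 91.3 with siFLI1 in TC-32. In TC-71 it ranged over 17.8 to 20.2 and 45.7 to 51.6, and in A673 over 1.59 to 1.89 and 3.07 to 3.93. PDGFRA held most of the sum in TC-32 and DCN in TC-71, and DCN was not called in A673 (0.10, edgeR adjusted p = 0.54). None of the 3 was at 0 in a whole group, though single siNeg libraries were, for PDGFRA in TC-71 and LUM in TC-32. The part of these markers in this result was not tested.

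Genes known to respond to TGF-beta, most of them raised by it and MYC repressed, were mostly higher. Of 23 response genes, 20 of 22 tested were higher and 0 lower in A673, 18 of 21 higher and 2 lower in TC-32, and 19 of 22 higher and 3 lower in TC-71. The shares higher were 90.9%, 85.7% and 86.4% in that order, against 35.6%, 41.3% and 36.8% of all genes. The median log2 fold change was 2.33, 2.21 and 4.01 in the same order, and 17 were higher in all 3 lines, as were 18.9% of all genes tested in each. The limit given above for genes near 0 counts holds for these shares too. COL1A1, the chain of type I collagen, had means of 77.7 CPM with siNeg and 3384 with siFLI1 in TC-32, 82.5 and 2495 in TC-71, and 47.9 and 2350.5 in A673. The crosslinking enzyme TGM2 rose by 7.82, 8.35 and 4.70, and the actin-binding TAGLN by 3.43, 4.52 and 3.88, in TC-32, TC-71 and A673, though TAGLN shares 38.1% of its exon bases with another gene model on its strand and 34.1% with PCSK7 on the other. SPHK1, a lipid kinase, rose by 1.89 in TC-32 and 3.75 in A673 and fell by 0.36 in TC-71. MYC fell by 2.71 in TC-32 and 0.73 in TC-71 and rose by 0.36 in A673. The fibroblast marker sums given above moved with this list as well, and their part was not tested.

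**Figure D4:**
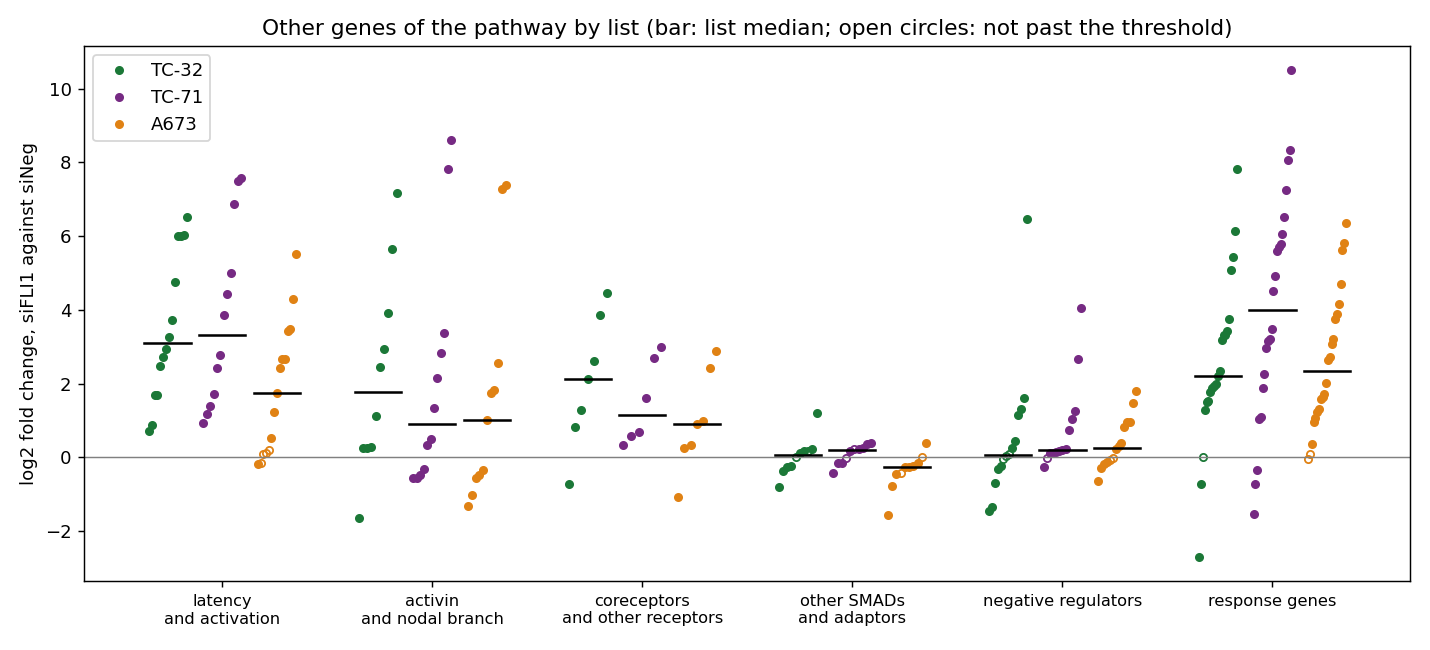
Each point is the log2 fold change (vertical axis, siFLI1 against siNeg) of 1 tested gene of the 6 lists, with TC-32 in green, TC-71 in purple and A673 in orange. Open circles are genes not called and bars are list medians. The medians of latency and activation (1.74 to 3.31) and of the response genes (2.21 to 4.01) lie well above 0, and those of other SMADs and of negative regulators within 0.26 of it.

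Receptors and coreceptors outside the 10 were mostly higher, while the related activin branch was mixed. Of 7 coreceptors and other receptors, 6 were higher in each line and 1 was lower in TC-32 and in A673, with a median log2 fold change of 2.13, 1.15 and 0.92 in TC-32, TC-71 and A673. The shares of tested members higher were 85.7%, 100% and 85.7%, and of all genes 41.3%, 36.8% and 35.6%. NRP1, a coreceptor for several growth factors, rose by 3.85, 3.00 and 2.88, and VASN, a membrane protein that traps TGF-beta, by 4.46, 2.71 and 2.42. The type I receptor ACVR1 rose by 1.29, 1.61 and 0.99 and the coreceptor ENG by 0.82, 0.58 and 0.92. ACVRL1, at 0.407 CPM in TC-32 controls and 0.227 in A673 controls, rose by 2.13 in TC-32 and was called lower at -1.09 in A673, a call lost with DESeq2 (adjusted p = 0.059). CD109, a coreceptor that limits signalling, fell by 0.73 in TC-32 and rose by 0.35 in TC-71 and 0.26 in A673. Of the 16 activin and nodal genes, 6 of 11 tested were higher in A673, 9 of 10 in TC-32 and 8 of 12 in TC-71, and the others tested were lower. The shares were 54.5% higher and 45.5% lower (A673), 90% and 10% (TC-32) and 66.7% and 33.3% (TC-71), where all genes had 35.6% and 35.4%, 41.3% and 40.1%, and 36.8% and 35%. The median was 1.03, 1.79 and 0.91 in that order, and in TC-32 it was 1.54 with genes near 0 counts at their bound. Some of these genes passed the filter on low counts through their siFLI1 libraries alone, so their direction was fixed on entry. Among them were INHBA, INHBB and MSTN in TC-32, LEFTY2 in TC-71 and A673, and FST in A673. In TC-32, TC-71 and A673, FSTL3, which sequesters activin, rose by 1.12, 3.37 and 1.74, and the type II receptor ACVR2B fell by 1.65, 0.57 and 1.32. LEFTY2, an extracellular inhibitor of nodal, rose by 2.94 in TC-32, and in lines with at most 1 count in any control the rise was at least 56.2-fold (TC-71) and at least 40.95-fold (A673). INHBA, the activin A subunit, rose by 1.03 in A673 and by at least 40.7-fold in TC-32, and in TC-71 it rose from 0 to 4 counts with siNeg to 11 to 21 with siFLI1. INHA, the inhibin subunit, rose by 2.45 in TC-32 and 1.83 in A673 and fell by 0.56 in TC-71. Both rises of INHA rest on few reads, with 1 to 5 counts in TC-32 controls and 3 to 8 in A673 controls. INHBE fell by 1.02 in A673 and rose by 1.33 in TC-71, where its controls held 6 to 26 counts.

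For the lists of proteins that act inside the cell, the medians lay closer to 0. Of 10 other SMADs and adaptors, 4 were higher and 4 lower in TC-32, 5 higher and 3 lower in TC-71, and 1 higher and 7 lower in A673, with a median log2 fold change of 0.066, 0.20 and -0.25. The split in TC-32, 40% higher and 40% lower, was near that of all genes (41.3% and 40.1%). In TC-71 it was 50% and 30%, against 36.8% and 35%, and in A673 10% and 70%, against 35.6% and 35.4%. SMAD5 and SMAD9, transducers of BMP signals, were lower in all 3 lines, SMAD9 at -0.38, -0.41 and -1.56 and SMAD5 at -0.24, -0.16 and -0.17 in TC-32, TC-71 and A673. The SMAD5 call in TC-71 was lost without siFLI1 replicate 1 (-0.096, adjusted p = 0.11). SMAD6, an inhibitory SMAD like SMAD7, fell by 0.27 in TC-32 and 0.78 in A673 and rose by 0.40 in TC-71, and the coactivator CREBBP rose by 0.23 and 0.37 in TC-32 and TC-71 and fell by 0.45 in A673. Of 14 negative regulators, 6 were higher and 5 lower in TC-32, 11 of 13 tested higher and 1 lower in TC-71, and 8 higher and 4 lower in A673. The median was 0.066, 0.19 and 0.26. Their split in TC-32, 42.9% and 35.7%, was also near that of all genes, and those in TC-71 (84.6% and 7.69%) and A673 (57.1% and 28.6%) held more members higher than all genes did. In the order TC-32, TC-71 and A673, PMEPA1, which keeps SMADs from the receptor and is itself a target, rose by 1.60, 2.68 and 1.48, and SMURF2, a ubiquitin ligase for SMADs and receptors, by 1.14, 1.26 and 1.80. LDLRAD4, a relative of PMEPA1, rose by 6.48, 4.04 and 0.95, with 2 to 7 counts in its TC-32 controls. TGIF1, a SMAD corepressor, fell by 1.45 in TC-32 and 0.64 in A673 and rose by 1.04 in TC-71. PEG10, an imprinted gene, fell by 1.35 in TC-32 and rose by 0.82 in A673, and its value of 0.11 in TC-71 lost its call in 3 of the 6 fits that left out a library.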

How the data were processed

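Total RNA of 18 libraries was sequenced after preparation with a strand-specific mRNA kit, per the labels' protocols. The authors deposited expected counts per gene for A673 and TC-32, which the table names attribute to RSEM. The TC-71 table that the authors deposited holds counts per gene, attributed to Subread. The submitters' processing notes list cutadapt 4.4, STAR 2.7.3, featureCounts, Subread 2.0.3, limma 3.38.3 and GRCh38 (hg38), without RSEM. The annotation release, strand setting and filters are not given in the sources used here.

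Expected counts were rounded. Every line had its own fit in edgeR 4.0.16 (R 4.3.3), with filterByExpr, TMM, a robust quasi-likelihood F-test and Benjamini-Hochberg adjustment over all genes tested. Log2 fold changes carry a prior count of 0.125, and standard errors and 95% intervals come from unshrunken coefficients. Differences between lines are interaction contrasts over all 18 libraries, so they can depart slightly from the difference of the single-line values. Where a group had at most 3 counts in every library, it was set to 3 counts per library and the fold is a lower bound.

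Positions, overlaps and canonical transcript lengths came from GENCODE release 44 (GRCh38). No level per length was used for SMADs, since the SMAD2 model of 34626 bases is unusually long. Promoters came from RefSeq (GRCh38.p14), where all 10 genes matched. The 10 genes and the 6 lists were chosen with earlier results of these data known. From each list up to 4 genes called one way in all 3 lines, with the largest smallest change, and up to 2 called opposite ways are named. Of the genes so chosen, 1 is not reported here. The 5 genes closest to TGFBR2 are also named, among those whose mean log2 CPM was 1 or more. Alternatives used RLE factors, library size alone, other filters, DESeq2 1.42.0, limma-voom (limma 3.58.1), unrounded counts, a replicate block, each library left out and a 2-fold threshold. No replicates held identical values, and between replicates chi-square divided by its degrees of freedom was at least 2.45. The fits were tested on simulated data.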

Additional observations from a re-analysis of the deposited data

Results flagged for a closer look

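For the following genes edgeR's interaction test, at an adjusted p under 0.05, found the siFLI1 effect to differ between lines. Each value is the log2 fold change in the first line minus that in the second. Most genes of these tables differ between lines in this test, by the shares given above. TC-32 minus A673 was -0.67 for TGFB1, -3.03 for TGFB2, -0.65 for TGFB3, -0.55 for TGFBR1, -0.17 for TGFBR2, -0.40 for SMAD2, 0.19 for SMAD3 and 0.99 for SMAD7. TC-32 minus TC-71 was -0.79 for TGFB1, -3.66 for TGFB2, -0.81 for TGFBR1, -1.93 for TGFBR2, 0.34 for TGFBR3, -0.37 for SMAD2, -1.75 for SMAD3, -0.17 for SMAD4 and -0.54 for SMAD7. A673 minus TC-71 was -0.63 for TGFB2, 0.58 for TGFB3, -0.27 for TGFBR1, -1.75 for TGFBR2, 0.32 for TGFBR3, -1.94 for SMAD3 and -1.53 for SMAD7. The ligand TGFB2 had the widest differences involving TC-32.

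Of the 86 genes of the pathway lists, 22 were called in opposite directions in 2 lines. The 11 with the widest difference, up to 2 from each list, differed in the same test. TC-32 minus A673 was 3.24 for ACVRL1, -2.15 for PEG10 and -3.05 for MYC. TC-32 minus TC-71 was 3.02 for INHA, -1.08 for CD109 and -2.49 for TGIF1. A673 minus TC-71 was -1.38 for LTBP4, -2.39 for INHBE, -1.21 for SMAD6, -0.85 for CREBBP and 4.07 for SPHK1.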

How the results depend on the processing

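For the 10 genes within single lines, 390 values under alternatives kept direction and side of the threshold, 12 lost and 2 gained a call, and 6 reversed. The reversals were of values not called: TGFB1 in A673 was -0.079 with library size alone and, leaving out each library, -0.023 to 0.11. SMAD2 was -0.070 in A673 with library size alone, and leaving out a library gave 0.014 as its highest value in TC-71 and -0.066 as its lowest. SMAD4 in A673 ranged from -0.030 to 0.0015 leaving out each library. Of the interaction values, 545 kept both, 43 lost and 2 gained a call, and 10 uncalled ones reversed. TGFBR3 between TC-32 and A673 was -0.052 with only the 12 libraries of those lines and -0.0072 to 0.067 leaving out each library. SMAD4 between the same lines was 0.088 with library size alone, 0.0021 with a mean of at least 10 counts, and -0.070 to 0.024 leaving out each library. TGFB3 between TC-32 and TC-71 was -0.16 to 0.033 leaving out each library, highest without TC-32 siNeg replicate 3. SMAD2 between A673 and TC-71 was -0.027 with library size alone and -0.029 to 0.065 leaving out each library. Library size alone moved the median of all interaction values between TC-32 and A673 by 0.12. SMAD4 between TC-32 and TC-71 (-0.17, adjusted p = 0.048) lost its call under 13 of 20 settings, with values of -0.10 to -0.22. The cause of these changes was not tested.

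With a 2-fold change required besides the adjusted p, fewer genes can pass: 4269 (A673), 6095 (TC-32) and 4006 (TC-71), and of the 10 genes 5 in TC-32 and 4 in A673. Under that rule the counts were 1, 0 and 1 for other SMADs and 6, 4 and 2 for negative regulators in TC-32, TC-71 and A673, 6 for the activin branch in TC-71, and 3 for coreceptors in TC-71 and in A673. Leaving out each library, the count between A673 and TC-71 ranged from 4 to 8.

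Replicate numbers were not used as pairs in the main fits. Deviations of same-numbered libraries correlated at -0.205 to 0.0531, and those of differently numbered ones at -0.134 to 0.179. With 3 libraries per group, these values cannot show whether replicates were paired. With the replicate block, TGFB1 in TC-71 was 0.11 (adjusted p = 0.058), SMAD4 between TC-32 and TC-71 -0.17 (0.088) and TGFBR1 between A673 and TC-71 -0.26 (0.056), so 7 of the 10 genes were called in TC-71, and no count moved by over 1.5 times.

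Ligand shares depended on length. From counts with no length, siNeg and siFLI1 shares of TGFB1 were 73.0% and 27.7% (TC-32), 80.3% and 65.7% (TC-71) and 71.5% and 9.35% (A673). Those of TGFB2 were 22.6% and 68.5%, 0.264% and 12.6%, and 16.3% and 87.1%. Those of TGFB3 were 3.74% in siFLI1 cells of TC-32, 19.5% and 21.7% in TC-71, and 12.3% and 3.54% in A673. With merged exons, chosen after seeing the data, TGFB1 held 86.7% and 76.4% in TC-71. TGFB2 held 13.9% and 55.2%, 0.154% and 7.90%, and 9.99% and 80.3%, and TGFB3 3.15% and 3.49%, 13.1% and 15.7%, and 8.72% and 3.77%, in TC-32, TC-71 and A673. The leading ligand was the same in each group under all 3 lengths. CPM without TMM moved 12 of 60 group means by more than 1 SD. TGFB2 values in TC-71 controls rest on few reads (10 to 14 counts).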

Other observations

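Further response genes, named after their values were seen, departed from the rest of their list or differed widely between lines. SNAI1, a transcription factor of mesenchymal transitions, fell by 0.73 in TC-32 and 1.54 in TC-71, and its value in A673 was -0.054 (edgeR adjusted p = 0.57), while its relative SNAI2 rose by 5.07 (TC-32), 2.96 (TC-71) and 2.64 (A673). CDKN2B, the p15 inhibitor of the cell cycle, rose at least 121-fold in TC-71, against 3 counts per library, and held 0 counts in every A673 library and at most 1 count in any TC-32 library. FN1, or fibronectin, was at 29.2 ± 2.42 CPM in TC-71 controls and 7901 ± 304 after siFLI1, and in TC-32 and A673 its controls already held 11559 ± 399 and 7320.4 ± 37.3 CPM (SD, n = 3), with rises of 1.49 and 0.96. CCN2, a matrix protein, rose by 1.52 (TC-32), 6.52 (TC-71) and 4.17 (A673). NOX4, an oxidase, was detected with more than 1 count in A673 alone, where its value was 0.097 (adjusted p = 0.42).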
